A study of Mus musculus with 17 samples.

Results

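The MHC class I antigen presentation genes described here are 10 genes of the 49585 gene identifiers counted in each library. They were chosen by function, with earlier results of these data known, and the rule uses no measured value: the class I heavy chains H2-K1 and H2-D1, B2m, the peptide transporter subunits Tap1 and Tap2, Tapbp, the immunoproteasome subunits Psmb8, Psmb9 and Psmb10, and the regulator Nlrc5. All 10 symbols matched an identifier, and their counts were compared across the genotype and time labels. The study sorted endothelial cells from mouse bone marrow, of wild-type (WT) animals and of animals lacking the TGF-beta co-receptor Endoglin (gene Eng) in endothelium (KO), and sequenced them with SmartSeq2, a full-length RNA method without molecular identifiers. The KO line joins a tamoxifen-inducible Cre recombinase under the endothelial Cdh5 promoter with an Eng allele whose exons 5 and 6 are floxed. All 17 libraries carry the tamoxifen label, given at 8 weeks of age, and the labels do not say whether WT animals carried Cre. There were 4 WT and 4 KO libraries 2 weeks after tamoxifen, and 5 WT and 4 KO libraries 4 weeks after it, named below by sex and number as in their titles (the 4-week WT library f has no number). No label says that each library came from a separate animal, so p-values measure the spread between these libraries.

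Class I molecules show peptides from inside the cell to CD8 T cells. Peptides are cut by the proteasome, whose immunoproteasome form carries exchanged catalytic subunits, pumped into the endoplasmic reticulum by the TAP transporter, and loaded with the help of tapasin onto a heavy chain paired with beta-2 microglobulin. Endothelium expresses the pathway at rest, interferons raise it, and NLRC5 is a transactivator of its genes.

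Of the 10 genes, 7 lie within 1.35 Mb of chromosome 17 (the MHC), and Psmb9, Tap1, Psmb8 and Tap2 stand together in 0.0343 Mb of it, chr17:34181987-34216321 (GRCm38). Psmb10 (chr8:105935735-105938444) and Nlrc5 (chr8:94434356-94527272) lie on chromosome 8, and B2m (chr2:122147686-122153083) on chromosome 2. Promoters below are RefSeq sequences of GRCm38.p6, read 5′ to 3′ on the gene's strand from 250 bases before to 50 after the start. The table matched 8 members, with no entry for Tap2 and Nlrc5. They are shown because the heavy chains and B2m share a motif and had the highest levels, and because Psmb8 and Psmb9 had the smallest p-values between time points. Capitals mark motif matches: in H2-K1 and H2-D1 an NF-kB site followed by a match to GAANNGAAA on the opposite strand, in B2m a match to GAAANNGAA followed by an NF-kB site on the opposite strand, and in Psmb8 a match to TTCNNNGAA.
H2-K1 (chr17:34000298-34000597, minus strand): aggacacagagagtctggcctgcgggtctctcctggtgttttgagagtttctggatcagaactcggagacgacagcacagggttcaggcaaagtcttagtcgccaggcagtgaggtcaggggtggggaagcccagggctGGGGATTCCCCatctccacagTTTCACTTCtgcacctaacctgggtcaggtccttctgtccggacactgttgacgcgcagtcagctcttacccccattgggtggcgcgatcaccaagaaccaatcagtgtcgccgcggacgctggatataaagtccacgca
H2-D1 (chr17:35262844-35263143, plus strand): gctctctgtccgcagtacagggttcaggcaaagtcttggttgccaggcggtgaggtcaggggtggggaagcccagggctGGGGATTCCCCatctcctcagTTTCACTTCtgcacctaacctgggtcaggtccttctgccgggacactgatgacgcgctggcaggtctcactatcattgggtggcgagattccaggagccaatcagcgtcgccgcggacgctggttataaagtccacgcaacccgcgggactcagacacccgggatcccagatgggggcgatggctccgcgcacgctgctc
B2m (chr2:122147437-122147736, plus strand): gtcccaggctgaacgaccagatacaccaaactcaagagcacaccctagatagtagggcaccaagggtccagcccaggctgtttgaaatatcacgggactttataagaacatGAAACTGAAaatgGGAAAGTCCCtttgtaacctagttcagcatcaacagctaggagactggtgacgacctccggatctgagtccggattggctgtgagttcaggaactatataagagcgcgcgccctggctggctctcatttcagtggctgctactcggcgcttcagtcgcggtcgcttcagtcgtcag
Psmb8 (chr17:34197945-34198244, plus strand): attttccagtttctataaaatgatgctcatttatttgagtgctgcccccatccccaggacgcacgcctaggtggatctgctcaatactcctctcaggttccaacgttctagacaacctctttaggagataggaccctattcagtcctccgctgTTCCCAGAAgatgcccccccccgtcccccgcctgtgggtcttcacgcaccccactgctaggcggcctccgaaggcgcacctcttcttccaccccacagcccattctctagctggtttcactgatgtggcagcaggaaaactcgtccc
Tap1 and Psmb9, the 275 bases their promoters share (chr17:34187306-34187580, plus strand): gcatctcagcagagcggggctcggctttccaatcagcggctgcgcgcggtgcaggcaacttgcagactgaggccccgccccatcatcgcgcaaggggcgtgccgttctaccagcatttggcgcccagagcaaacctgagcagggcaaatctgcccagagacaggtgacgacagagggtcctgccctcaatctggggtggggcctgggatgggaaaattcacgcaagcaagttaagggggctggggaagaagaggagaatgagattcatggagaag

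Tap1 reads to the right and Psmb9 to the left from this stretch, with starts 226 bases apart, and none of the motifs searched matched in it. The H2-K1 and H2-D1 promoters share an unbroken run of 47 bases that contains the NF-kB site. Both strands of all 32851 promoters of the table were searched. The interferon-stimulated response element core GAAANNGAA was in 8.56% of them and in 1 of 8 members (B2m), and the gamma-activated site TTCNNNGAA in 8.3% and in 1 of 8 (Psmb8). The NF-kB site was in 5.8% of all promoters and in 3 of 8 members (B2m, H2-D1 and H2-K1); in H2-K1 and H2-D1 it matched in overlapping windows. The form GAANNGAAA, added after the first result was seen, was in 7.52% and in 2 of 8 (H2-D1 and H2-K1).

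Libraries held 20477400 to 40882715 counts. The time points differed in kind: at 2 weeks 22.2% to 29.5% of counts were mitochondrial and 10886 to 13583 identifiers were detected, against 4.66% to 8.99% and 15996 to 21235 at 4 weeks. Time point and batch cannot be told apart. Eng was lower in every KO than in every WT library of its time point, at 225 to 347 against 705 to 1307 CPM (counts scaled to the total of their library) at 2 weeks and 274 to 1647 against 2400 to 2735 CPM at 4 weeks. The 1647 CPM was KO m2 alone, the other 3 KO libraries lying at 274 to 873 CPM, and KO m2 also held the lowest H2-K1, H2-D1 and B2m of the 4-week libraries (without it their 4-week KO to WT log2 values were 0.17, 0.15 and 0.20, and 0 members passed). Among the other members it held the lowest Psmb8 (246 CPM) and the highest Tap1 (144 CPM) of these libraries. It also held their highest erythroid sum (2900 CPM). A link between its Eng level and these values was not tested. All 13 endothelial markers had counts at both time points. At 2 weeks the KO libraries m2 and m3 stood apart in neutrophil transcripts (summed over 9 markers, 4039 and 3154 CPM, against 22.6 to 238 in the other 6). At 4 weeks WT f3 and m3 and KO f2 and m3 stood apart with 859 to 1215 CPM over 9 stromal and bone markers, against 2089 to 2960 in the other 5. Of 8 T and NK markers Cd3e, Cd8a, Klrb1c and Ncr1 were at 0 in every library, and the sum of all 8 reached 5.25 CPM at 2 weeks (KO m2, all from Nkg7) and 3.05 CPM at 4 weeks (WT m1).

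The 10 genes summed to between 8633 and 10972 CPM in the 2-week libraries and to between 12058 and 17003 CPM in those of 4 weeks. With mitochondrial counts left out of the total they summed to a median of 1.35% (2 weeks) and 1.56% (4 weeks) of the remainder. Levels between genes were compared as CPM per kb of merged exons. On this scale B2m ranked highest in all 4 groups, at 4117 ± 580 CPM per kb (SD, n = 4) in 2-week WT, followed by H2-D1 at 1291 ± 144 and H2-K1 at 336 ± 37.4. Tapbp, Psmb8 and Psmb10 followed at 185 ± 30.9, 141 ± 49.8 and 144 ± 33.7 CPM per kb, and the ranges of mean ± SD of these 3 overlapped. Psmb9 stood at 59.5 ± 4.53, Tap2 at 37.2 ± 13.2, Tap1 at 15.1 ± 4.65 and Nlrc5 at 1.37 ± 1.17 CPM per kb. At 4 weeks the top 3 and the last place were the same, and Tap2 (73.7 ± 6.33 CPM per kb in WT, n = 5) stood above Psmb9 (32.1 ± 1.93), the reverse of the 2-week order. H2-K1 and H2-D1 belong to a gene family with near-identical members, so their counts depend on how shared reads were treated, which is not given in the sources used here.

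**Figure D1:**
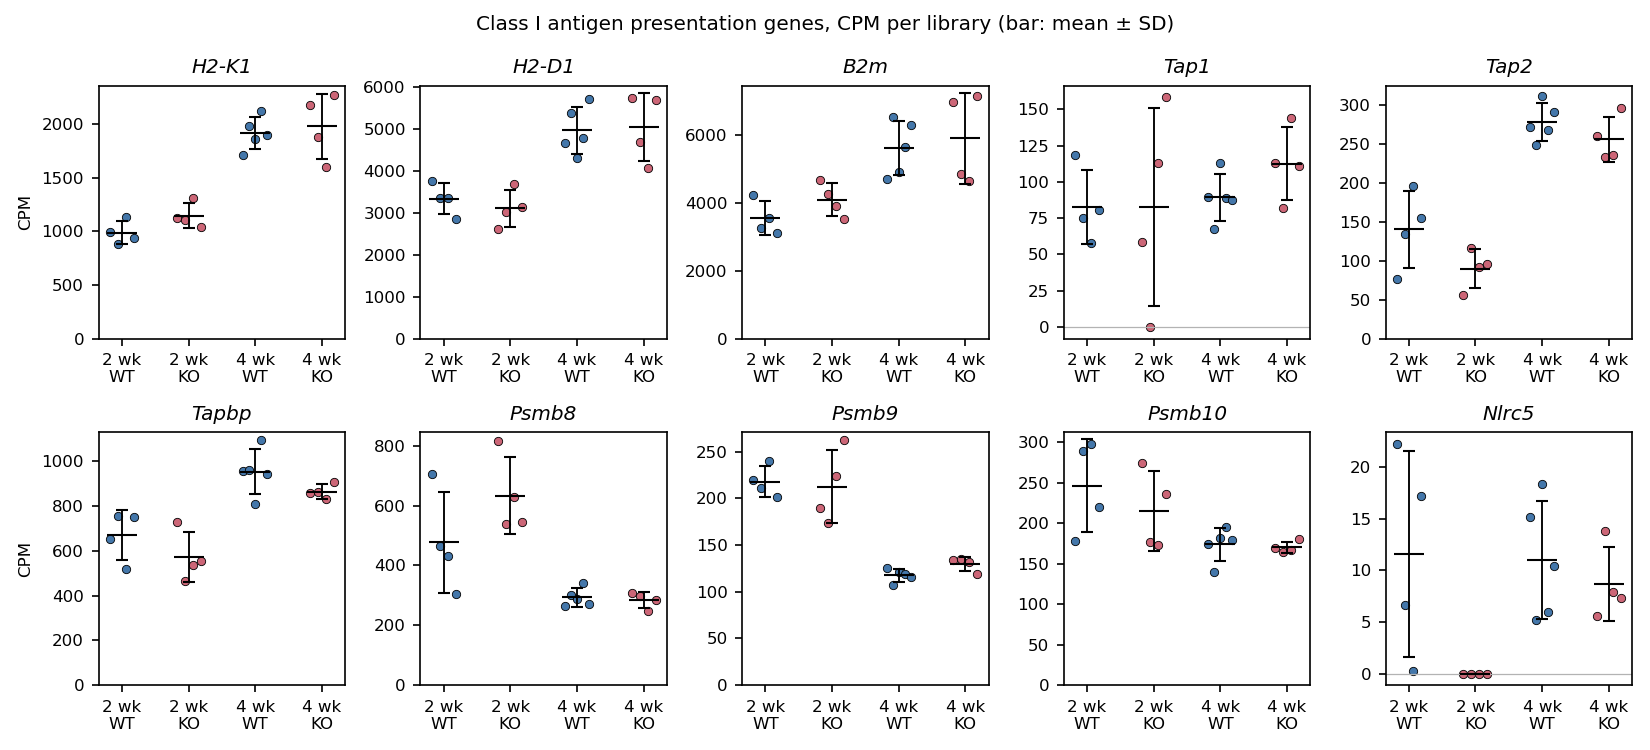
Expression of the 10 genes in CPM (linear axis from 0), 1 point per library, in the 2-week WT, 2-week KO, 4-week WT and 4-week KO groups; the bars give mean ± SD. The genotypes overlap in every panel except Nlrc5 at 2 weeks, where all 4 KO libraries are at 0, and Psmb9 is lower in every 4-week than in every 2-week library.

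None of the class I chains passed the test of KO against WT at either time point. Eng, the targeted gene, did not pass it either (edgeR, log2 -1.96 with adjusted p = 0.612 at 2 weeks, log2 -1.72 at 4 weeks). A gene that did not pass is therefore not shown to be unchanged. H2-K1, a classical heavy chain, stood at 997, 881, 1136 and 934 CPM in the 2-week WT libraries f1, f4, m2 and m3, and at 1121, 1110, 1314 and 1037 CPM in the KO libraries of the same names. The highest value was in KO m2 and the lowest in WT f4, and the groups overlapped. The KO to WT ratio was 1.16 (95% interval 0.992 to 1.36, edgeR with Benjamini-Hochberg adjusted p = 1). At 4 weeks WT ran from 1715 to 2122 CPM (median 1895, n = 5) and KO stood at 2174, 1880, 1597 and 2270 CPM in f2, m1, m2 and m3, with a ratio of 1.05 (0.835 to 1.32).

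H2-D1, the other classical heavy chain, stood at 3761, 3344, 3359 and 2851 CPM in the 2-week WT libraries f1, f4, m2 and m3 and at 2609, 3005, 3670 and 3136 CPM in KO. The ratio was 0.932 (0.745 to 1.17), with the lowest value in KO f1 and the highest in WT f1. At 4 weeks it was 1.04 (0.813 to 1.33), with WT at 4310 to 5708 CPM and KO at 5729, 4693, 4067 and 5691 CPM. B2m, the light chain of all class I molecules, stood at 4239, 3254, 3547 and 3121 CPM in 2-week WT and at 4682, 4254, 3909 and 3517 CPM in KO. The groups overlapped, with KO f1 highest and WT m3 lowest, and the ratio was 1.15 (0.98 to 1.35). The 4-week ratio was 1.07 (0.79 to 1.46), with WT at 4711 to 6521 CPM and KO at 6955, 4854, 4629 and 7135 CPM.

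Levels of these chains in the 4-week libraries are given beside the split by stromal transcripts, which holds 2 libraries of each genotype on its low side. In the 4 libraries low in stromal markers B2m ran from 6281 to 7135 CPM, against 4629 to 5652 CPM in the other 5, and H2-D1 from 5363 to 5729 CPM against 4067 to 4780 CPM. The sets did not overlap for these 2 of the 10 genes; of 15294 genes with at least 10 counts in 4 libraries, 11.1% did not overlap, so 2 of 10 is near the share over all genes. H2-K1 (1895 to 2270 against 1597 to 2122 CPM) and the other 7 genes overlapped. Erythroid markers, at 1106 to 2429 CPM in the low set and 165 to 2900 in the other, overlapped as well, and general leukocyte markers (5 genes) stood at 4.04 to 15.5 against 0.0642 to 6.94 CPM. The part of other cells in these levels was not tested. With a term for the 4 libraries, added after the data were seen, 0 of 10 genes passed the 4-week KO test.

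**Figure D2:**
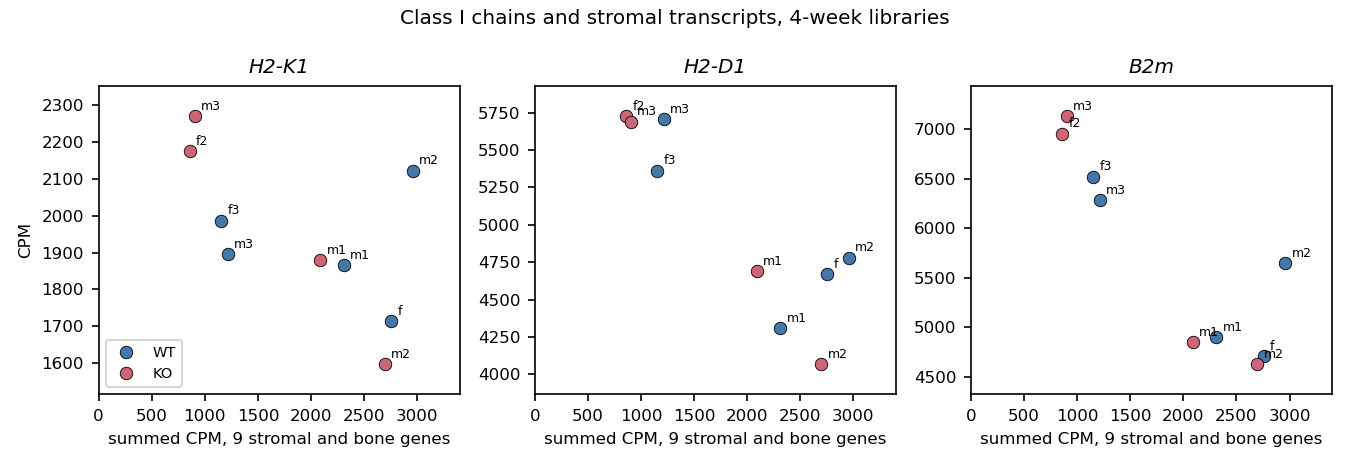
H2-K1, H2-D1 and B2m in CPM (vertical axes, not from 0) against the summed CPM of 9 stromal and bone markers in the 9 libraries of 4 weeks, labelled by name and coloured by genotype. WT f3 and m3 and KO f2 and m3 lie at 859 to 1215 summed CPM and hold the 4 highest H2-D1 and B2m values, with 2 libraries of each genotype.

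The peptide transporter and tapasin did not pass the KO test. Tap1, one subunit of the transporter, stood at 118, 74.9, 57.7 and 80.3 CPM in the 2-week WT libraries f1, f4, m2 and m3 and at 58.8, 0, 113 and 158 CPM in KO. KO f4 had 0 counts of 33938327, which allows up to 0.0884 CPM (3 counts, counting error only), while the other 7 libraries held 1570 to 5751. With that library the 2-week ratio, 0.764, had an interval from 0.0463 to 12.6, so no difference was detectable. Without it the log2 value was 0.36 (SE 0.51), against -0.39 with it, and did not pass either. At 4 weeks Tap1 was 1.26 times as high in KO (0.94 to 1.69), at 67.7 to 113 CPM in WT and 82.2 to 144 CPM in KO.

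Tap2, the partner subunit, stood at 76, 135, 196 and 155 CPM in 2-week WT and at 56.1, 116, 92.3 and 95.3 CPM in KO, f1 being lowest in both genotypes. Its ratio was 0.668 (0.39 to 1.14) at 2 weeks and 0.927 (0.759 to 1.13) at 4 weeks. Tapbp encodes tapasin, which tethers empty class I molecules to the transporter. It stood at 517 to 757 CPM in WT and 464 to 728 CPM in KO at 2 weeks, and at 811 to 1097 and 832 to 909 CPM at 4 weeks. The Tapbp ratios were 0.849 (0.623 to 1.16) and 0.919 (0.769 to 1.10). Exons of Tap1 and Psmb9 overlap on opposite strands, and those of Tap2, Tapbp, Psmb8 and Nlrc5 overlap other genes; as the strand setting of the counting is not given, reads in those stretches are uncertain.

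The immunoproteasome subunits also overlapped between genotypes. Psmb8, which replaces Psmb5, stood at 706, 465, 433 and 303 CPM in 2-week WT and at 816, 539, 630 and 546 CPM in KO, with WT m3 lowest and KO f1 highest. The ratio was 1.36 (0.944 to 1.96) and, at 4 weeks, 0.982 (0.798 to 1.21). Psmb9, which replaces Psmb6, had ratios of 0.969 (0.74 to 1.27) and 1.12 (0.951 to 1.32). Psmb10, which replaces Psmb7, had ratios of 0.879 (0.596 to 1.29) and 0.984 (0.827 to 1.17).

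In all, 0 of 9 genes tested at 2 weeks and 0 of 10 at 4 weeks passed adjusted p under 0.05 in edgeR, DESeq2 or limma voom, and 0 had an unadjusted p under 0.05 in edgeR as planned. That last count was 0 to 4 over the alternatives at 2 weeks and 0 to 1 at 4 weeks; the share of all genes at that level was not computed in each alternative, so nothing is read from these counts. Over all genes edgeR called 0 of 10477 (0%) and 0 of 15209 (0%), with unadjusted p under 0.05 for 2.63% and 2.77%; DESeq2 called 149 and 17. Genotypes did not overlap in CPM for 0 of the 9 and 0 of the 10 genes, against 3.36% and 1.19% of all genes tested. The median log2 fold change of the members was -0.10 at 2 weeks, beside -0.06 over all genes, and 0.02 at 4 weeks, beside 0.01. These values are per library of sorted cells, in which fewer cells of a type and less RNA per cell cannot be told apart. At 2 weeks 8 of 9 neutrophil markers were tested and all 8 had positive fold changes (0 past the adjusted threshold, 4 with unadjusted p under 0.05). Their sum was 107 to 4039 CPM in KO and 22.6 to 107 CPM in WT, and the common leukocyte antigen Ptprc was at 0 in every WT library and at 15.6 CPM in KO m2. The 5 general leukocyte markers, Ptprc among them, overlapped in their sum, at 0.0749 to 153 CPM in KO and 0 to 51.4 CPM in WT. Only 1 of these 5 was tested, and its fold change was negative (log2 -4.08). All 5 erythroid markers tested had positive fold changes at 2 weeks (0 past the adjusted threshold, 3 with unadjusted p under 0.05). The erythroid sum over the 9 listed did not overlap, at 278 to 1248 CPM in KO and 61.4 to 195 CPM in WT. Of 12 endothelial markers tested 9 had negative fold changes (0 past the adjusted threshold; Tie1, Sox17 and Esam with unadjusted p under 0.05), and their sum was 5490 to 6208 CPM in KO and 6238 to 7878 CPM in WT. The part of these shifts in the members' values was not tested, other than that without KO m2 and m3 0 of the members passed.

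**Figure D3:**
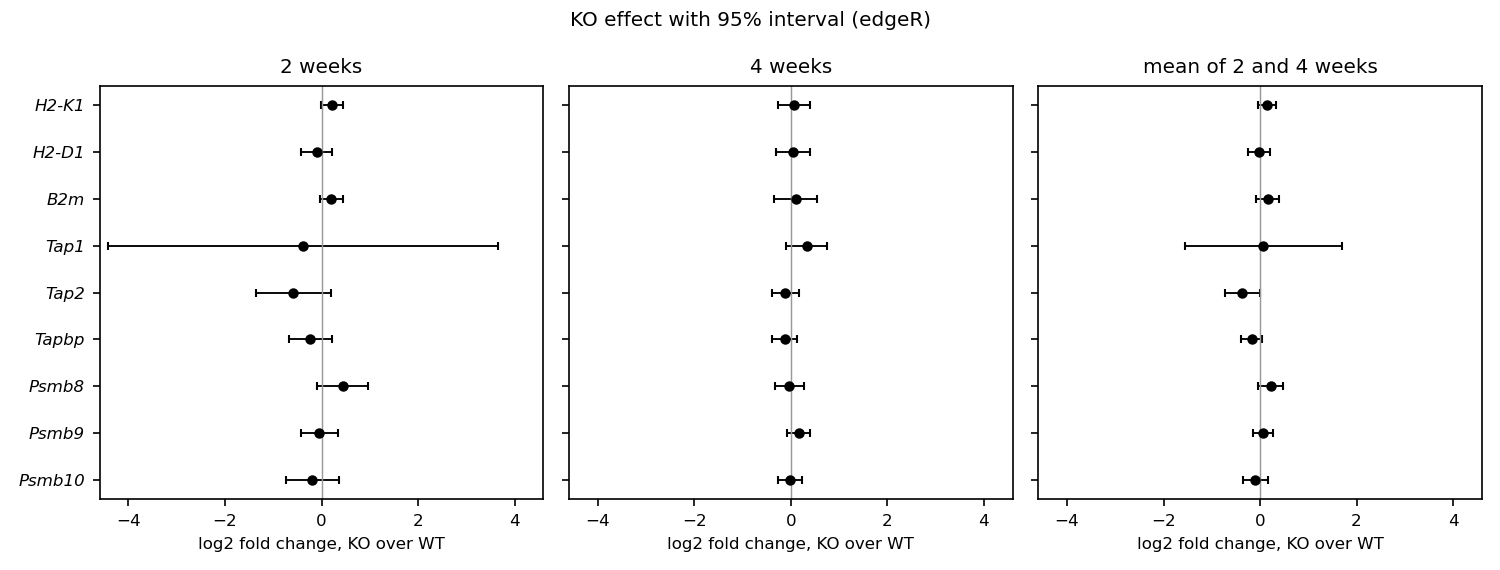
KO to WT log2 fold change with its 95% interval from edgeR, for 9 genes at 2 weeks, at 4 weeks and as the mean of both. Every interval contains 0, and Tap1 at 2 weeks is the widest; Nlrc5 is left out because it was at 0 in the 2-week KO libraries and its fitted value depends on the prior count.

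Nlrc5 was the member whose genotypes did not overlap at 2 weeks. At 2 weeks it held 845, 272, 9 and 650 counts in WT f1, f4, m2 and m3, or 22.2, 6.65, 0.276 and 17.2 CPM, and 0 counts in all 4 KO libraries, which allows up to 0.112 CPM in the shallowest. Taken against that floor of 3 counts per library, the WT mean (11.6 ± 9.96 CPM, SD, n = 4) was 103-fold higher, though WT m2 stood close to the floor. The floor covers counting error only (Tap1 too was at 0 in KO f4), so this fold is not a lower bound. At 4 weeks Nlrc5 overlapped between the genotypes, at 5.23 to 18.4 CPM in WT and 5.62 to 13.8 CPM in KO, with a ratio of 0.753 (0.356 to 1.59).

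The low-count filter of the 2-week fit left Nlrc5 out. With no filter its adjusted p was 0.903 (unadjusted 0.0168), and in the joint fit of all 17 libraries 0.0246, both by edgeR with Benjamini-Hochberg adjustment, so the call depends on the fit. In the joint fit the mean KO effect over both times had adjusted p = 0.0542 and the difference between the 4-week and 2-week effects adjusted p = 0.0629, neither past the threshold. Those tests called 13 (0.0828%) and 12 (0.0764%) of 15703 genes, with unadjusted p under 0.05 for 11% and 9.81%; among the members that held for Nlrc5 alone in both. DESeq2 called Nlrc5 in both, where it called 1396 and 1303 of 15703 genes, and limma voom in neither (7 and 5 genes called). The mean effect passed without 2-week WT f1 (adjusted p = 0.0498), WT m2 (0.00726), KO m2 (0.0324) or KO m3 (0.0493), and the difference without WT m2 (0.00664) or KO m2 (0.0457). With the replicate block the adjusted p was 0.857 and 0.964. Nlrc5 was 1 of 12 genes (0.0764%) with 0 counts in every 2-week KO library and over 3 in every 2-week WT library. The opposite pattern held for 5 genes (0.0318%), and the same pattern at 4 weeks for 1 gene (0.00637%), which was not a member. The other 9 genes had mean KO effects between -0.36 (Tap2) and 0.22 (Psmb8) on the log2 scale, none past the threshold, with adjusted p of at least 0.466.

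Between time points the 3 immunoproteasome subunits fell in both genotypes and H2-K1 rose. Psmb9 ran from 173 to 263 CPM in the 8 libraries of 2 weeks and from 107 to 135 CPM in the 9 libraries of 4 weeks, without overlap. It fell by 1.21 on the log2 scale in WT (SE 0.13, adjusted p = 8.61e-05) and by 1.05 in KO (SE 0.14, adjusted p = 0.000542; edgeR, Benjamini-Hochberg). Psmb8 ran from 303 to 816 CPM at 2 weeks and from 246 to 342 CPM at 4 weeks, where the WT library m3 of 2 weeks alone lay within the 4-week range. It fell by 0.95 in WT (SE 0.17, adjusted p = 0.00423) and by 1.41 in KO (SE 0.18, adjusted p = 0.000469). Psmb10 ran from 172 to 298 and from 139 to 195 CPM, overlapping, and fell by 0.82 in WT (SE 0.16, adjusted p = 0.00866) and by 0.67 in KO (SE 0.18, adjusted p = 0.0396). The Psmb10 call in KO was lost on leaving out 8 of the 17 libraries one at a time (4-week WT f and m1, all 4 of the 4-week KO, 2-week KO f1 and m3), with adjusted p from 0.021 to 0.103.

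H2-K1, at 881 to 1314 CPM at 2 weeks and 1597 to 2270 CPM at 4 weeks, did not overlap between times on library totals. It rose by 0.65 in WT (SE 0.13, adjusted p = 0.00777) and by 0.47 in KO (SE 0.13, adjusted p = 0.0499). The WT call was lost with limma voom (0.67, adjusted p = 0.0699). The KO call was kept only without 2-week WT f4 or m2, 2-week KO m2 or 4-week KO m2, and lost without any one of the other 13 libraries, with adjusted p from 0.0152 to 0.18. Tap2 ran from 56.1 to 196 and from 233 to 312 CPM, again without overlap, and rose by 1.14 in KO (SE 0.26, adjusted p = 0.018; 0.0849 without 4-week KO f2). In WT its value was 0.68 (SE 0.24, adjusted p = 0.103), which passed in DESeq2 (adjusted p = 0.0253) and with at least 10 counts in every library (0.04 in edgeR). H2-D1 (2609 to 3761 against 4067 to 5729 CPM) and Tapbp (464 to 757 against 811 to 1097 CPM) were also higher in every 4-week library, yet their log2 values after TMM scaling, 0.28 and 0.20 in WT and 0.39 and 0.31 in KO, did not pass. H2-D1 in KO passed without 2-week KO m2 and m3 (0.71, adjusted p = 0.0456 in edgeR). B2m and Tap1 did not pass in either genotype, except that B2m in WT passed with at least 10 counts in every library (0.48, adjusted p = 0.0381 in edgeR).

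The test called 4 of 10 members in WT, against 6.92% of 15703 genes, and 6 of 10 in KO, against 6.33%. The WT count was 6 with at least 10 counts in every library (639 of 4987 genes called), 5 in DESeq2 (2938 of 15703) and 3 in limma voom (1391 of 15703). The KO count was 4 with that minimum (626 of 4987), with no low-count filter (567 of 26916) or without 2-week KO m2 and m3 (1068 of 17478), 5 in limma voom (1217 of 15703) and 3 with KO libraries fitted alone (1103 of 13456). The sixth in KO was Nlrc5 (edgeR, adjusted p = 0.00349), at 0 counts in every 2-week and 115 to 370 in every 4-week KO library. Against the floor, which covers counting error only, its 4-week KO mean was 77.2-fold higher. In WT its adjusted p was 0.93. In CPM 5 members did not overlap between the times (H2-K1, H2-D1, Tap2 and Tapbp higher at 4 weeks, Psmb9 lower), against 6.5% of genes. CPM use the library total, of which 22.2% to 29.5% was mitochondrial at 2 weeks and 4.66% to 8.99% at 4 weeks. On totals without mitochondrial counts H2-K1, H2-D1, Tap2 and Tapbp overlap between the times, and Psmb9 does not. The log2 values over time stand on a shift of the whole distribution, since the median log2 change of all genes was 0.42 in WT and 0.49 in KO. Less that median, Psmb9 stood at -1.63 and -1.54, Psmb8 at -1.37 and -1.90, Psmb10 at -1.24 and -1.15, and Tap2 at 0.26 and 0.65 in WT and KO. H2-K1 stood at 0.23 and -0.01. This reference depends on the genes kept: among those with at least 10 counts in every library the median was 0.0025 in WT and -0.024 in KO, and in that fit H2-K1 rose by 0.75 and 0.55. WT and KO were not compared for these changes other than by the difference of KO effects above, in which 0 members passed. Markers of cell types moved between the times too. Of 13 endothelial markers 13 had positive values in WT (4 past the adjusted threshold) and 12 in KO (5 past), with sums of 5490 to 7878 CPM at 2 weeks and 11957 to 13814 CPM at 4 weeks. Of 9 erythroid markers 8 had positive values in each genotype (median 1.93 in WT, 1 past, and 1.29 in KO, 0 past). All 9 neutrophil markers had negative values in KO (median -4.72, 1 past), against 4 of 9 in WT (0 past). Their part in the members' changes was not tested.

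**Figure D4:**
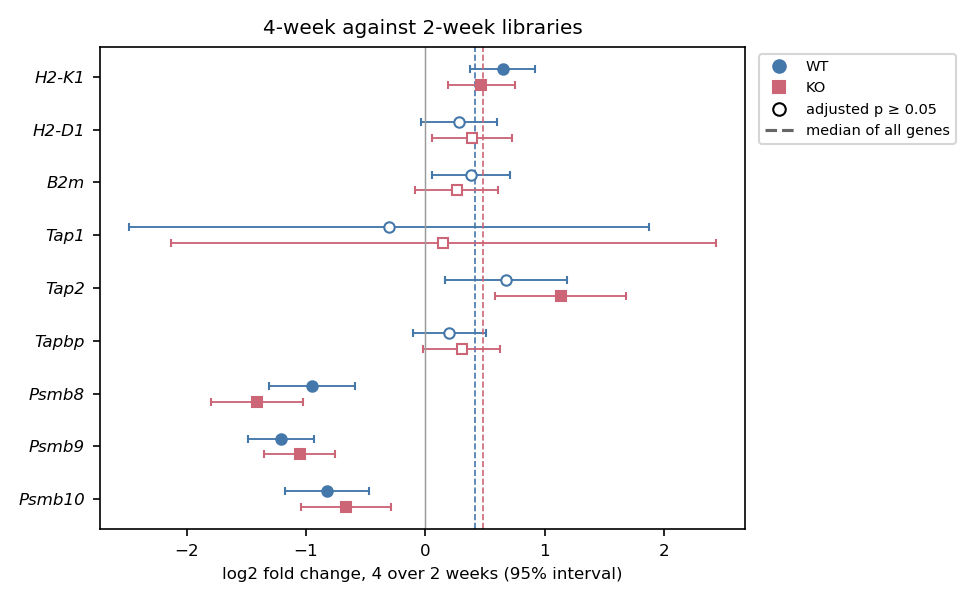
Log2 fold change of the 4-week over the 2-week libraries, with 95% interval, for 9 genes in WT (circles) and KO (squares); filled symbols passed adjusted p 0.05 and dashed lines mark the median of all genes, 0.42 and 0.49. Psmb8, Psmb9 and Psmb10 lie below 0 in both genotypes and H2-K1 lies near the dashed lines; Nlrc5 is left out because the 2-week KO libraries were at 0.

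The constitutive subunits that the immunoproteasome replaces did not pass the time test in either genotype. Psmb5 had log2 values of -0.26 and -0.19 in WT and KO, Psmb6 of -0.62 (adjusted p = 0.0818) and -0.30, and Psmb7 of -0.45 and -0.46. The ratio of each subunit to its counterpart, in CPM per kb within a library, does not depend on library scaling; it was chosen after the values were seen and was not tested. Psmb8 to Psmb5 was 0.999 to 3.15 at 2 weeks (1.92 ± 0.708, SD, n = 8) and 0.774 to 1.05 at 4 weeks (0.893 ± 0.0799, n = 9). Only 2-week WT m2 (0.999) and m3 (1.02) lay within the 4-week range. Psmb9 to Psmb6 was 0.511 ± 0.176 and 0.315 ± 0.0514, and Psmb10 to Psmb7 was 4.75 ± 1.89 and 3.59 ± 0.421, both overlapping between times and genotypes. The spread within the 2-week groups was wide, as Psmb10 to Psmb7 ran from 2.62 to 7.03 among the 4 KO libraries.

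**Figure D5:**
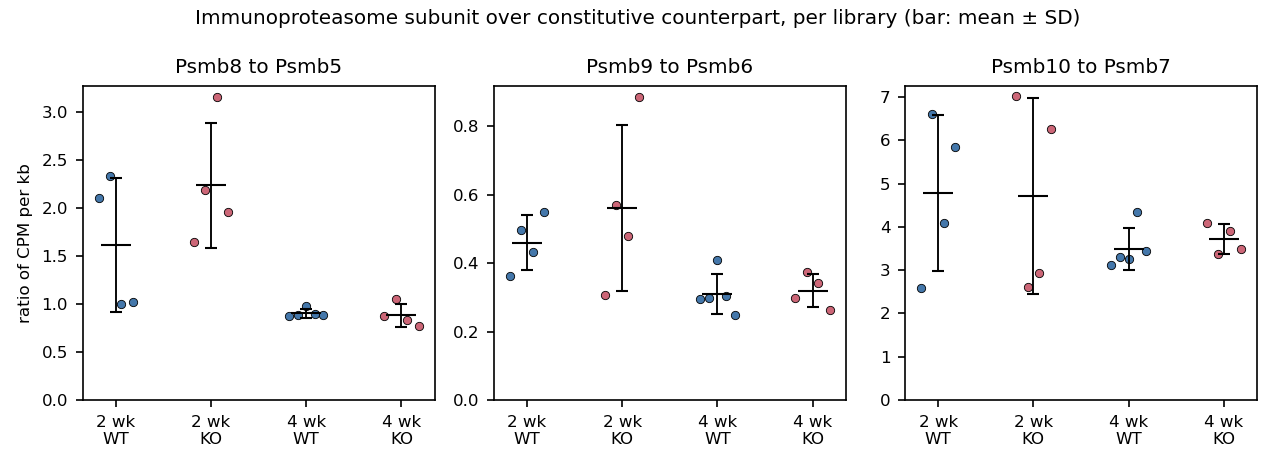
Ratio of each immunoproteasome subunit to the constitutive subunit it replaces, in CPM per kb, 1 point per library and mean ± SD by group (vertical axes from 0). Psmb8 to Psmb5 lies at 0.774 to 1.05 in all 4-week libraries and reaches 3.15 at 2 weeks, and the genotypes overlap in every panel.

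Other genes of the pathway were read from 5 lists: 12 nonclassical class I genes, 8 of the loading complex and trimming, 8 of the proteasome and its activators, 30 of interferon signalling and its targets, and 7 of class II. In the KO tests, each time point alone and joint, 0 genes of any list passed the adjusted threshold. At 2 weeks none reached the unadjusted threshold of 0.05 in edgeR either, and those nearest to it were H2-Q6, a nonclassical class I gene (log2 0.90, SE 0.38), and the interferon factor Irf1 (0.48, SE 0.22), both with adjusted p = 1. At 4 weeks the unadjusted threshold was reached by 2 of 11 nonclassical genes tested (higher in KO) and 1 of 8 loading and trimming genes (lower). Of 30 interferon genes 1 was higher and 1 lower, beside 2.77% of all genes in either direction. The genes ranked first by unadjusted p at 4 weeks were the interferon signal transducer Stat2 (-0.69, SE 0.24) and the nonclassical H2-T22 (0.45, SE 0.16), both with adjusted p = 1 in edgeR. In the joint tests they were the chemokine gene Cxcl10 and Cd1d1, which presents lipids. Both were at 0 in every 2-week WT library. Among the 2-week KO libraries Cxcl10 had counts in f1 (17.4 CPM) and m3 (12.2 CPM) and was at 0 in f4 and m2. Cd1d1 had counts in m3 alone (17.1 CPM), one of the libraries that stood apart in neutrophil transcripts. At 4 weeks WT and KO overlapped for both.

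Interferon-linked genes changed in both directions between time points. Irf7, a factor of the type I interferon response, fell by 1.94 in WT and 2.08 in KO (adjusted p = 6.8e-05 and 9.7e-05, edgeR). The interferon-induced GTPase Gbp3 fell by 1.60 and 1.68, and H2-T22 by 1.82 and 1.23. Irf1, which binds promoters of class I genes, rose by 1.76 and 1.42, from 102 to 267 CPM over the 2-week libraries to 358 to 759 CPM at 4 weeks. Pdia3, a chaperone of the loading complex, rose by 1.26 and 1.59. Cxcl10 passed in WT (adjusted p = 0.0256), from 0 counts to 11.4 to 32.3 CPM. Of the 30 interferon genes 3 rose and 3 fell in WT, and 1 rose and 3 fell in KO, beside 6.92% and 6.33% of all 15703 genes called in either direction (790 rose and 296 fell in WT, 760 and 234 in KO). Their median was 0.26 and 0.28, beside 0.42 and 0.49 over all genes. Of the 12 nonclassical class I genes 1 rose and 1 fell in WT, and 0 rose and 1 fell in KO. Of the 8 loading and trimming genes 1 rose in each genotype, of the 8 proteasome genes 1 fell in each (the activator subunit Psme2), and of the 7 class II genes 0 passed. With lists of 7 to 12 genes, a count of 1 is near the share called over all genes.

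Across libraries of a time point 9 gene pairs were correlated on log2(CPM + 1), 18 relations in all, with exact permutation tests by pairings (two-sided). At 2 weeks 0 of 9 passed after adjustment. Tap1 and Psmb9, which share the promoter stretch printed above, had r = 0.72 and rho = 0.60 over 8 libraries (exact permutation p = 0.0201 and 0.132, adjusted 0.142 and 0.595). Without KO f4, where Tap1 was at 0, and KO m3, where both were highest, r was 0.21, so the relation rests on those libraries. At 4 weeks the pair had r = 0.54 and rho = 0.38 over 9 libraries (exact permutation p = 0.131 and 0.312, adjusted 0.491 and 0.804), and -0.06 without KO m2 and WT f3. Tap1 and Nlrc5 had r = 0.30 at 2 weeks and 0.07 at 4 weeks (exact permutation p = 0.55 and 0.852). At 2 weeks Nlrc5 was at 0 in all 4 KO libraries, so that r cannot tell a relation of these genes from the genotype split. The 4-week libraries fall into the 2 sets described above, each with fewer than 6 libraries, and the 4-week values of the pairs above are pooled over both. For H2-K1, H2-D1 and B2m no pooled r is given, since H2-D1 and B2m did not overlap between those sets. Pooled, H2-K1 and B2m passed by rho (0.93, exact permutation, adjusted p = 0.0135) and not by r.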

How the data were processed

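RNA of sorted bone marrow endothelial cells (CD45- Ter119- CD31+ Sca1+ per the labels' protocols; the design text lists no Sca1) was measured in 17 libraries. The authors deposited raw counts per gene, 1 table per library. The submitters' processing notes name cutadapt, STAR, HTSeq 0.6.1p1 and the builds GRCm38 and mm10; settings, strand and annotation are not given in the sources used here. Symbols and positions came from GENCODE M21 (GRCm38), which matched 49326 of 49585 identifiers; 22669 were at 0 in every library.

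Counts were tested with edgeR 4.0.16 (quasi-likelihood, filterByExpr, TMM scaling, sex term) in R 4.3.3, with Benjamini-Hochberg adjustment over all genes of a fit and a threshold of 0.05. Each time point was fitted alone, and all 17 libraries together for the mean KO effect, its difference between times and the change over time (15703 genes). The script was checked on simulated data. Alternatives were DESeq2 1.42.0, limma 3.58.1 (voom), other scalings and filters, no sex term, no mitochondrial genes, leaving out libraries, and a replicate block. CPM use the library total; levels between genes use CPM per kb of merged exons. Without molecular identifiers, counts are of amplified fragments, and floors of 3 counts cover counting error only.

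All members, Eng, fixed companions (Irf1, Psmb5, Psmb6, Psmb7, and another not reported here), the gene pairs, and up to 3 pathway genes per direction with the smallest p past the threshold (or the 2 smallest where none passed) were named. Members and lists were chosen with earlier results of these data known. At 4 weeks same-numbered males deviated together (r = 0.332, 0.108 and 0.471 over 6914 genes), and the numbers were used as a block there. Libraries of other numbers correlated as much: r was 0.108 to 0.48 for every WT and KO library on the same side of the stromal split and -0.481 to -0.0887 across it, so the correlations follow that split and do not show that the numbers mark pairs.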

Additional observations from a re-analysis of the deposited data

How the results depend on the processing

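Of 1462 recomputed values of single genes 1357 kept their direction and their side of the threshold, 35 lost a call, 16 gained one and 54 changed sign; each of the 54 had a main value under its standard error. Psmb8 and Psmb9 fell over time in both genotypes under every alternative run, and Psmb10 in WT. In KO, Psmb10 kept its call in 15 of 27 alternatives and H2-K1 in 8 of 27, Tap2 in 24 of 27.

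Log2 values of KO against WT at 2 weeks that changed sign were 0.024 for Psmb9 with upper quartile scaling, 0.018 for H2-D1, 0.60 for Tap1 and 0.029 for Psmb9 with voom, and 0.033 for Tap1 with no sex term. Leaving out 1 library gave -0.18 to 0.0069 for H2-D1, -0.91 to 0.36 for Tap1 and -0.16 to 0.023 for Psmb9. At 4 weeks upper quartile scaling gave 0.010 for Psmb8 and 0.015 for Psmb10, and voom 0.030 and 0.039. With the replicate block H2-K1 stood at -0.041, H2-D1 at -0.033 and B2m at -0.035, and with the stromal term H2-D1 at -0.0075. Leaving out 1 library gave -0.023 to 0.17 for H2-K1, -0.038 to 0.15 for H2-D1, -0.042 to 0.20 for B2m, -0.11 to 0.045 for Psmb8 and -0.10 to 0.0089 for Psmb10. For the mean KO effect H2-D1 stood at 0.019 with upper quartile scaling and 0.050 with voom, and Tap1 at -0.37 with voom and -0.28 with the replicate block. Without 2-week KO m2 and m3 Tap1 stood at -0.63 and Psmb9 at -0.075. Leaving out 1 library gave -0.073 to 0.051 for H2-D1, -0.15 to 0.36 for Tap1 and -0.0017 to 0.11 for Psmb9. For the difference of KO effects it gave -0.0045 to 0.22 for H2-D1, -0.064 to 0.93 for Tap1 and -0.021 to 0.21 for Tapbp. Over time it gave -0.55 to 0.013 for Tap1 and -0.89 to 0.17 for Nlrc5 in WT, and -0.30 to 0.65 for Tap1 in KO, and voom gave 0.54 for Nlrc5 in WT. The causes were not tested.

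The count of members called, 0 in the 2-week KO test, was 1 (Nlrc5) in the joint fit. For the mean KO effect and for the difference it was 1 instead of 0 with DESeq2, with no sex term and without 2-week KO m2 and m3, and 0 to 1 on leaving out 1 library. For KO over time it was 3 instead of 6 when KO libraries were fitted alone, and 3 to 6 on leaving out 1 library, the 3 being without 4-week KO f2. By Pearson's r, 1 pair of genes, H2-K1 and B2m at 4 weeks, passed on TMM library sizes against 0 on library totals; by Spearman's rho it passed on library totals too (exact permutation, adjusted p = 0.0135), pooled over the 2 stromal sets. Over all genes DESeq2 called 149 (2 weeks), 17 (4 weeks), 1396 (mean), 1303 (difference), 2938 (WT over time) and 2873 (KO over time), against 0, 0, 13, 12, 1086 and 994 in edgeR, and voom 12, 0, 7, 5, 1391 and 1217. With no low-count filter these edgeR counts were 0, 0, 8, 6, 580 and 567, and with at least 10 counts in every library 0, 0, 3, 0, 639 and 626. Leaving out 1 library gave 5 to 60 for the mean, 7 to 51 for the difference, 588 to 1261 for WT and 504 to 1222 for KO over time; without 2-week KO m2 and m3 the mean and the difference called 289 and 251. The 2-week joint fit called 31.

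With the replicate block 0 members were called in each KO test, as without it, and 0 genes in all for the mean and the difference; females of 4 weeks had no partner and were left out. At 2 weeks same-numbered libraries did not deviate together (r = -0.0283 to 0.031), so they share only a number. With at least 10 counts required in every library Nlrc5 was tested at 4 weeks alone (-0.42, adjusted p = 0.994 in edgeR). The median log2 change of all genes over time moved from 0.42 in WT and 0.49 in KO to 1.38 and 1.66 with voom, and to 0.0025 and -0.024 with that count minimum.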
